A study of Mus musculus with 4 samples.

Results

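The genes described here encode the machinery that shortens the poly(A) tails of messenger RNAs, removes their caps and degrades them, together with the proteins that bring this machinery to its targets. The rule went by name: every probe whose symbol begins with Cnot, Exosc, Upf, Smg or Lsm followed by a digit, and the probes of 24 further named genes, among them Parn, Dcp2, Xrn1, Ddx6 and Pabpc1, were taken if the signal was above background (detection p-value under 0.05) on at least 2 of the 4 arrays. This kept 79 of 123 such probes, out of 16262 kept of 45263 in all, and left 48 of 60 decay genes to be tested among 11516 genes. Pan2, Edc3 and Lsm7 were not analysed here.

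The arrays compared whole lenses of mice at postnatal day 6 (P6), with 2 Celf1 cKO lenses (cKO A and B) and 2 control lenses (Control A and B). The Celf1 cKO mice carried 1 Celf1 lacZ knock-in allele, which is a germline knockout allele, and 1 conditional Celf1 allele deleted by Pax6GFPCre, a Cre driven in the lens placode and also active in the pancreatic lineage. The controls were Celf1 lacZKI/+ mice, so both groups lacked Celf1 function from 1 allele, and all were of a mixed C57BL/6J and FVB background. Each array was hybridised with the total RNA of 1 lens. The study describes the deletion as incomplete, from RNA sequencing of other Celf1 cKO lenses at the day of birth. It gives no such measure for these P6 lenses. In a whole lens, fewer cells of a type and less RNA per cell cannot be told apart.

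As background, most messenger RNAs begin to decay when their poly(A) tail is shortened by deadenylases such as the CCR4-NOT complex, PAN2-PAN3 and PARN. The body of the message is then degraded from its 5′ end, after decapping by DCP2 and its activators and digestion by XRN1, or from its 3′ end by the RNA exosome. CELF1 binds GU-rich elements and is known to promote the deadenylation and decay of messages that carry them. These arrays read the transcript amounts of the machinery, not the rate of decay.

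Celf1 was reduced in the Celf1 cKO lenses. Its log2 signal, averaged over 4 probes, was 7.45 and 6.95 in cKO A and B against 8.71 and 8.55 in Control A and B. The groups did not overlap, and the log2 fold change was -1.43 ± 0.19 (SE, n = 2 against 2, limma adjusted p = 0.0098). Without scaling of the arrays the Celf1 fold change was -0.60 (adjusted p = 0.0306), and with equal medians over all probes it was -0.64 (adjusted p = 0.0260). It missed the threshold without Control B (-1.53, adjusted p = 0.056), when undetected probes were kept (-1.16, 0.072) and with the deposited normalized values set to at least 1 (-1.52, 0.076). The cKO arrays were brighter before normalization, with 16261 and 16925 probes detected against 14542 and 14180 on the Control arrays, and the sign of most of the negative changes below depends on how the arrays were scaled. Xist was detected on both cKO arrays and on neither Control array (at least 6.09-fold higher) and Ddx3y was lower in the cKO lenses by a log2 fold change of -3.09 ± 0.55, so genotype and the sex of the animal cannot be told apart. Of the cell type markers, all 7 lens fiber genes were detected on every array, with a summed signal of 114662.0 to 122746.6 in the cKO and 138740.6 to 141384.4 in the Control lenses. The summed signal of the 4 lens epithelium markers was 103.8 to 144.5 in the cKO and 203.3 to 221.2 in the Control lenses, that of the 4 macrophage markers 54.0 to 57.4 and 42.8 to 44.7, and that of the 4 vessel markers 94.5 to 96.2 and 73.7 to 80.7. The groups overlapped for pigment cell markers (48.5 to 77.0 over the 4 arrays) and red blood cell markers (1170.4 to 2829.6), and none of the 4 retina and 4 muscle markers was retained. Of these markers Bfsp2, Birc7 and Foxe3 were reduced and Cd68, not above background on the Control arrays, was elevated. Quantile normalization gives the brightest probes of each array the same set of values (Crybb1 read 15.23 on both cKO A and Control A), so no direction is read from the brightest fiber markers or from the summed fiber signal. The less bright fiber markers Cryab (-0.24), Bfsp2 (-0.76) and Birc7 (-1.45) and the 3 tested lens epithelium markers (Foxe3 at -0.79, Sox2 at -0.69 and Cdh1 at -0.54) had negative fold changes. The macrophage and vessel markers went both ways, with Csf1r at -0.11 among the former and Kdr at -0.59, Pecam1 at -0.06 and Cdh5 at 0.58, none of them called, among the latter. The part of these in the results below was not tested.

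The findings on decay genes rest on few probes, and their sequences are shown so that the places read by the array can be seen. Pabpc1 was read by 3 probes of 50 bases on the minus strand of chromosome 15, and they did not move by the same amount. The 2 upstream probes (chr15:36538250-36538299 and chr15:36538212-36538261) share 12 bases, in capitals, which hold an ATG, and the third (chr15:36526743-36526792) starts 11469 bases away from the middle one. The deposited tables name no genome build for these positions. The last 30 bases of the first probe and the first 30 of each other probe are given, with the single Lsm8 probe (chr6:18803622-18803671, plus strand) and the Ddx6 probe of the largest change (chr9:44445111-44445160, plus strand), which carry no capitals.
Pabpc1 upstream probe: ccgcgggcagccgtgccgAGATGAACCCCA
Pabpc1 middle probe: AGATGAACCCCAgcgcccccagctacccca
Pabpc1 downstream probe: cactggcatgctgttggagattgataactc
Lsm8 probe: tgaagagacggattctgcactcgacttggg
Ddx6 probe: tttggtttcacgttgaagtctcacctcctg

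Few of the decay genes were called as changed between the Celf1 cKO and control lenses. With 2 lenses per group, a gene that was not called may still have changed. Of 48 tested, 1 was called elevated (Lsm8) and 1 reduced (Pabpc1), which is 2.08% in each direction, where 6.01% of all tested genes were elevated and 5.64% reduced. A call needed a limma adjusted p under 0.05 over all genes, an absolute log2 fold change above 0.58 and a mean log2 signal above 4.6. At an unadjusted p under 0.05 in the limma fit, 4 of the 48 were higher (Lsm8, Lsm5, Parn and Exosc8) and 6 lower (Pabpc1, Ddx6, Lsm12, Smg6, Cnot7 and Dcps), beside 16.8% and 15.0% of all genes. The median log2 signal of the decay genes was 7.06, against 6.03 over all genes, and 47 of the 48 were detected on all 4 arrays (Xrn1 on 3).

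The changes of the decay genes lay on both sides of 0. Their median log2 fold change was 0.03 (quartiles -0.17 and 0.23), beside 0.01 over all genes (quartiles -0.23 and 0.26), and their range was -0.76 to 0.86. Both cKO values lay above both Control values for 17 of the 48 genes and below for 16, where 32.6% and 29.7% of all genes did so. The 95% intervals had a median half-width of 0.34 on the log2 scale. For 44 of the 48 genes the interval lay wholly inside a 2-fold change either way (log2 fold change of -1 to 1), and for 26 it lay inside ±0.58. Over all genes these shares were 84.7% and 40.4%. The genes whose intervals reached beyond a 2-fold change were Ddx6, Lsm8, Lsm12 and Pabpc1.

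**Figure D1:**
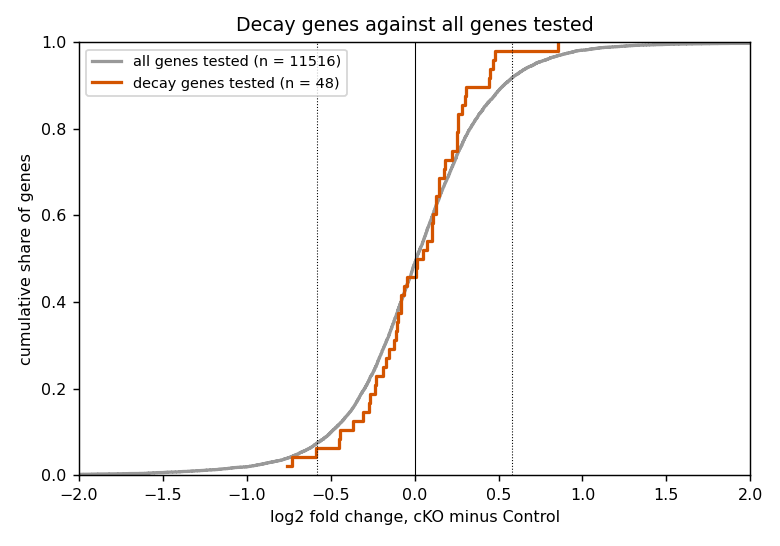
Cumulative share of genes (vertical axis) by log2 fold change of Celf1 cKO over Control (horizontal axis) for the 48 decay genes (orange steps) and all 11516 genes tested (grey line), with dotted lines at ±0.58. The orange steps follow the grey line through the middle, with medians of 0.03 and 0.01, and stop at -0.76 and 0.86 while the grey tails run on.

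Among the deadenylases, no gene was called. The CCR4-NOT complex, the main deadenylase of the cytoplasm, had 7 of 9 genes tested, with log2 fold changes from -0.44 to 0.31 and a median of -0.10. Cnot7, 1 of the complex's catalytic subunits, had the largest change of the group. Its log2 signal was 6.26 and 6.34 in the cKO lenses and 6.74 and 6.74 in the Control lenses. The groups did not overlap, both of its probes were lower in the cKO lenses (-0.48 and -0.40), and the fold change of -0.44 ± 0.13 (95% interval -0.76 to -0.12) did not pass the test (adjusted p = 0.073). Cnot6l, a catalytic subunit of the other kind, was read at 0.18 ± 0.14, but its 2 probes disagreed in sign (0.61 and -0.25). Cnot1, the scaffold of the complex, was at 5.52 in Control A and 6.20 in Control B, so the Control lenses alone spanned both cKO values (6.19 and 6.14). Cnot2 and Cnot3, which form the module that binds Cnot1's end, were at -0.10 ± 0.14 and -0.05 ± 0.20. Cnot4, a ubiquitin ligase bound to the complex, was at -0.17 ± 0.24 and Cnot10 at -0.27 ± 0.14. The catalytic Cnot6 and Cnot8 were each above background on 0 arrays.

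Parn, a poly(A)-specific ribonuclease that CELF1 has been linked to, was the other deadenylase tested among these families. Its log2 signal was 7.36 and 7.35 in the cKO lenses and 6.92 and 6.86 in the Control lenses. The 4 values fell in tight pairs apart from each other, yet the fold change of 0.46 ± 0.13 (95% interval 0.15 to 0.78) did not pass the test (adjusted p = 0.064). Pan3 was above background on 0 arrays.

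Of the cytoplasmic poly(A)-binding proteins, which coat the tail, Pabpc1 was reduced and Pabpc4 was not called. The log2 signal of Pabpc1 was 7.76 and 7.92 in cKO A and B and 8.36 and 8.82 in Control A and B. The cKO values lay below both Control values, the Control lenses differed more from each other than the cKO lenses did, and the fold change was -0.76 ± 0.19 (95% interval -1.20 to -0.32, adjusted p = 0.0446). The upstream probe printed above fell by 1.05 ± 0.18 (adjusted p = 0.0147 over all probes), the middle probe that overlaps it read -0.77 ± 0.25 (adjusted p = 0.084), and the downstream probe read -0.45 ± 0.24 (adjusted p = 0.25). The scanned intensity of the upstream probe, before normalization, was 246.8 and 234.9 in the cKO and 276 and 267.9 in the Control lenses. Before normalization the groups overlapped for the middle probe (108.9 and 113.4 against 103.3 and 122.9). They also overlapped for the downstream probe (1219.4 and 2066.7 against 1232.5 and 1188). Pabpc4 had log2 values of 7.68 and 7.61 against 7.69 and 7.73, a fold change of -0.06 with a 95% interval of -0.38 to 0.26. The difference within an array between Pabpc4 and Pabpc1, a pair chosen after their values were seen, was -0.07 and -0.30 in the cKO lenses and -0.67 and -1.10 in the Control lenses, a shift of 0.69. Without any scaling of the arrays this shift was 0.68. With no scaling between arrays the Pabpc1 fold change was 0.05, and with equal medians over all probes 0.01. Whether its probes also bind related sequences was not tested. The call was lost without cKO A (-0.67, adjusted p = 0.17), without cKO B (-0.83, 0.16) and without Control B (-0.53, 0.13). It was also lost with no detection filter (-0.76, 0.14), with 16 added to the deposited normalized values (-0.77, 0.058), with these set to at least 1 (-0.83, 0.13) and with the probe of highest signal alone (-0.45, 0.24).

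The sequence-specific recruiters and TOB adaptors, which bring deadenylases to chosen messages, had 6 of 7 genes tested and none called, with a median of -0.04. Pum2, a Pumilio protein, had log2 values of 7.15 and 7.56 in the cKO lenses and 7.08 and 6.68 in the Control lenses. The lowest cKO value stood only just above the highest Control value, and the fold change was 0.48 ± 0.20 (95% interval -0.01 to 0.96, adjusted p = 0.16). Leaving out 1 lens at a time gave 0.27 to 0.69, with the lowest value without cKO B. The AU-rich element binding proteins gave -0.31 ± 0.20 for Zfp36 and 0.28 ± 0.28 for Zfp36l1, in each of which the cKO lenses differed from each other by more than the groups did. KH-type splicing regulatory protein Khsrp was at 0.01 ± 0.14, with an interval of -0.33 to 0.34. Tob1 and Tob2, which link the deadenylase to such proteins and to Pabpc1, were at -0.10 ± 0.14 and -0.08 ± 0.15. Zfp36l2 was above background on 0 arrays.

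**Figure D2:**
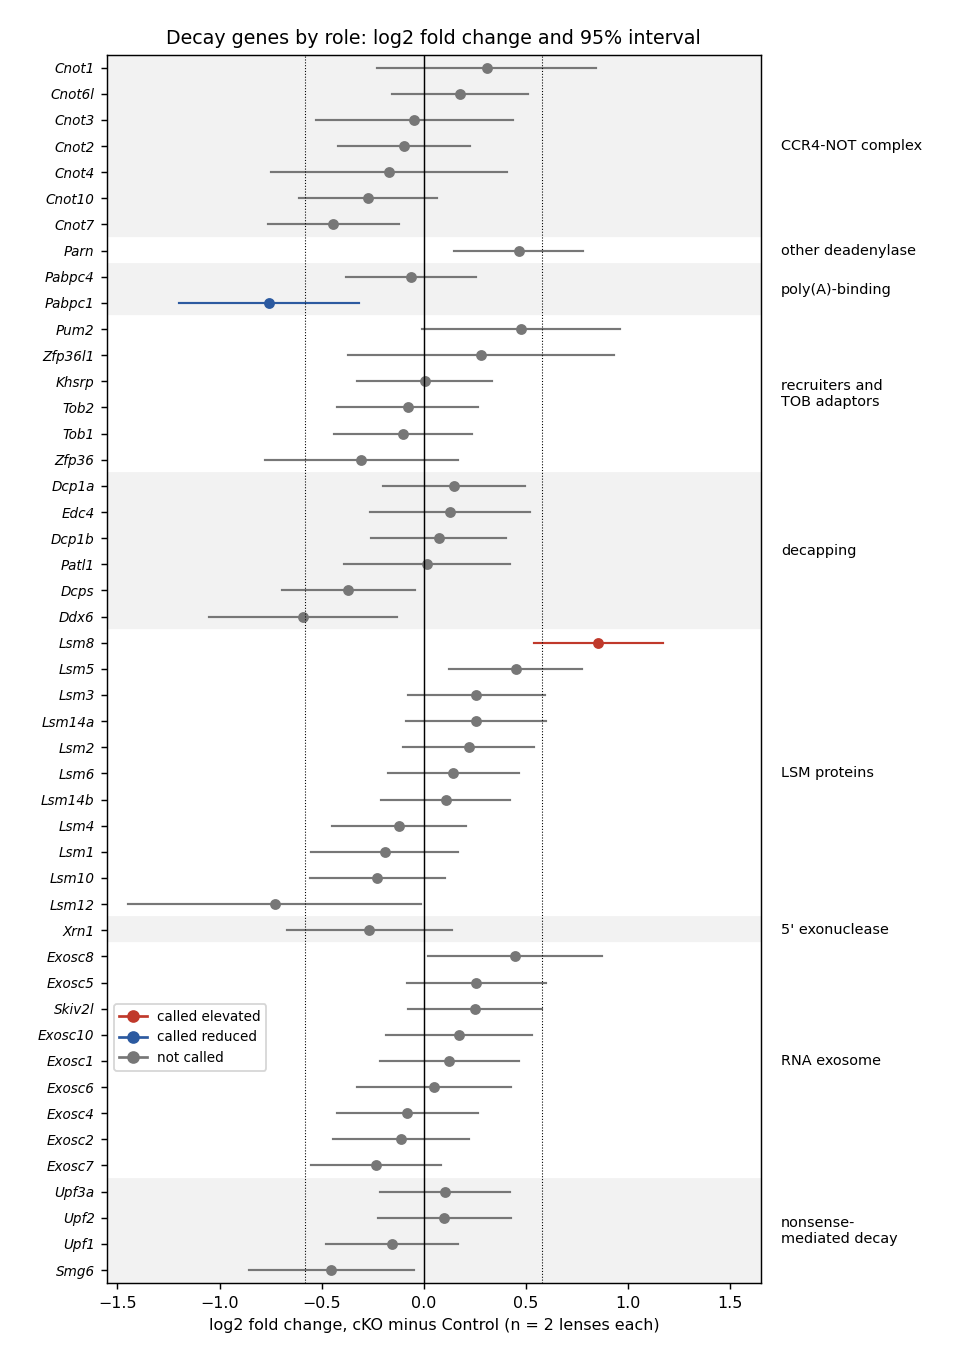
Log2 fold change of Celf1 cKO over Control (points) with 95% intervals (bars) for 47 of the 48 decay genes, grouped by role, with dotted lines at ±0.58. Lsm8 (red, 0.86) and Pabpc1 (blue, -0.76) are the genes called, and most other intervals cross 0.

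The decapping enzymes and their activators had 6 of 7 genes tested and none called, with a median of 0.04. Ddx6, an RNA helicase that represses translation and stimulates decapping, had the largest change. Its log2 signal, over 3 probes, was 5.41 and 5.54 in the cKO lenses and 6.32 and 5.81 in the Control lenses. Both cKO values were lower, the Control lenses differed from each other, and the fold change of -0.59 ± 0.19 (95% interval -1.05 to -0.13) did not pass the test (adjusted p = 0.089). The probe whose sequence is printed above was reduced on its own (-1.11 ± 0.20, adjusted p = 0.0163, with 6.99 and 7.12 against 8.40 and 7.92), while the others of the gene read -0.35 ± 0.23 and -0.31 ± 0.19. A further probe that RefSeq ties to Ddx6 under another name read -0.36 ± 0.18. Dcps, the scavenger of the cap left after decay from the 3′ end, was at 7.20 and 7.10 in the cKO lenses and 7.48 and 7.55 in the Control lenses, a fold change of -0.37 ± 0.14 (adjusted p = 0.12). The decapping cofactors lay closer to 0, with Dcp1a at 0.15 (95% interval -0.20 to 0.50), Dcp1b at 0.07 (-0.26 to 0.41), Edc4 at 0.13 (-0.26 to 0.52) and the scaffold Patl1 at 0.02 (-0.39 to 0.42). Dcp2, the decapping enzyme itself, was above background on 0 arrays.

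LSM proteins form rings around RNA. The ring of the cytoplasm, which activates decapping, holds Lsm1, and the ring of the nucleus, which binds U6 small nuclear RNA for splicing, holds Lsm8 in its place; the remaining members are shared. Of 11 LSM genes tested 1 was elevated, Lsm8. Its log2 signal was 9.55 and 9.57 in cKO A and B and 8.70 and 8.70 in Control A and B. The groups stood far apart compared with the spread inside each, the fold change was 0.86 ± 0.13 (95% interval 0.54 to 1.17, adjusted p = 0.0141), and the scanned intensities of its single probe before normalization were 990.8 and 1086.7 against 378.9 and 295. Lsm1 was at 7.59 and 7.84 in the cKO lenses and 7.96 and 7.85 in the Control lenses, a fold change of -0.19 with a 95% interval of -0.55 to 0.17. The difference within an array between Lsm8 and Lsm1, again a pair chosen after their values were seen, was 1.96 and 1.73 in the cKO lenses and 0.75 and 0.85 in the Control lenses, so it was larger by 1.05 in the cKO lenses, and by 1.09 without any scaling of the arrays. The 5 ring members tested that both rings share, Lsm2 to Lsm6, had a median of 0.22, with 4 above 0 and 0 called. The largest of these was Lsm5 at 0.45 ± 0.14 (8.81 and 8.86 against 8.44 and 8.33, adjusted p = 0.073), and the lowest was Lsm4 at -0.12 ± 0.14. The Lsm8 call was lost without cKO A (0.87, adjusted p = 0.055), without cKO B (0.85, 0.10) and without Control B (0.85, 0.063), and with the deposited normalized values set to at least 1 (0.87, 0.081), while its fold change moved little under these.

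Among LSM proteins outside these rings, Lsm12 had the largest change of any decay gene that was not called. Its log2 signal was 6.91 and 6.79 in the cKO lenses, 8.09 in Control A and 7.08 in Control B. Control A stood apart from the other 3 lenses, and the fold change of -0.73 ± 0.30 had a 95% interval of -1.45 to -0.01 (adjusted p = 0.15). A further probe that RefSeq ties to Lsm12 under another name had values of 5.96 and 5.62 against 6.43 and 6.56, which was a called reduction of -0.70 ± 0.18 (adjusted p = 0.0448 over all probes). Without Control A the gene was at -0.23, and without Control B it was called reduced at -1.25. With the further probe included it was at -0.72 ± 0.22 (adjusted p = 0.075). The Lsm14 proteins, partners of Ddx6 in messenger ribonucleoprotein granules, were at 0.25 ± 0.14 (Lsm14a) and 0.11 ± 0.13 (Lsm14b). Lsm10, part of the U7 particle that processes histone messages, was at -0.23 ± 0.14, and its partner Lsm11 was above background on 0 arrays.

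**Figure D3:**
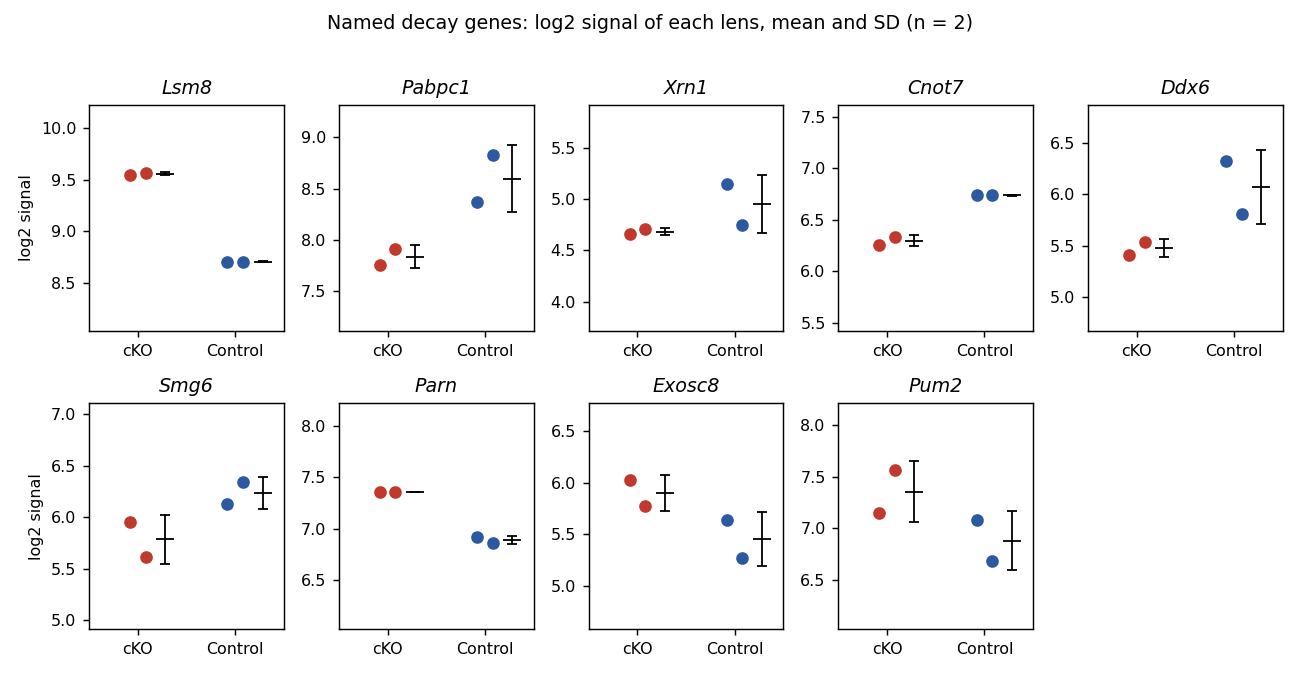
Log2 signal (vertical axis, the same span in each panel) of each lens for the 9 decay genes that were called or had the largest change of their role group, with red points for Celf1 cKO, blue points for Control and black bars for the mean and SD (n = 2). In Lsm8 the cKO points (9.55 and 9.57) lie well above the Control points (8.70 and 8.70), and in Pabpc1 they lie below (7.76 and 7.92 against 8.36 and 8.82).

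Of the 5′ exonucleases, Xrn1, which digests decapped messages in the cytoplasm, was above background on 3 of the 4 arrays. Its log2 signal was 4.66 and 4.71 in the cKO lenses and 5.15 and 4.75 in the Control lenses, a fold change of -0.27 ± 0.17 (95% interval -0.67 to 0.14, adjusted p = 0.33). It was -0.07 without Control A and -0.52 without Control B. All 3 probes of the nuclear Xrn2 were above background on 0 arrays.

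The RNA exosome and its helicase had 9 of 12 genes tested and none called, with 6 of the 9 above 0 and a median of 0.13. The exosome is a barrel of RNase PH-like subunits capped by RNA-binding proteins, with the nucleases DIS3 and EXOSC10 attached. In the barrel, Exosc8 had the largest change, with log2 values of 6.03 and 5.78 in the cKO lenses and 5.64 and 5.27 in the Control lenses. The groups did not overlap, and the fold change was 0.45 ± 0.18 (95% interval 0.02 to 0.87, adjusted p = 0.14). Leaving out 1 lens at a time gave 0.27 (without Control B) to 0.65 (without Control A). Exosc5 was at 0.26 ± 0.14 and Exosc6 at 0.05 ± 0.16, while Exosc4, Exosc7 and the cap protein Exosc2 were at -0.08 ± 0.15, -0.23 ± 0.13 and -0.11 ± 0.14. The cap protein Exosc1 was at 0.13 ± 0.14, the nuclear nuclease Exosc10 at 0.17 ± 0.15, and Skiv2l, the helicase that feeds messages into the cytoplasmic exosome, at 0.25 ± 0.14. Dis3, Exosc3 and Exosc9 were each above background on 0 arrays.

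The nonsense-mediated decay factors, which destroy messages with early stop codons, had 5 of 7 genes tested and none called, with a median of 0.10. Smg6, the endonuclease of the pathway, had the largest change, with log2 values of 5.95 and 5.62 in the cKO lenses and 6.13 and 6.35 in the Control lenses. All cKO values were lower than all Control values, and the fold change was -0.45 ± 0.17 (95% interval -0.86 to -0.05, adjusted p = 0.12). Leaving out 1 lens at a time gave -0.60 (without cKO A) to -0.28 (without cKO B). The core helicase Upf1 was at -0.16 ± 0.14 with probes of both signs, and its partners Upf2 and Upf3a were both at 0.10 ± 0.14. Upf3b was above background on 0 arrays, and Smg5 on 1.

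The probes of 1 gene did not always agree. The 22 decay genes with more than 1 retained probe had a median range of 0.22 between the log2 fold changes of their probes, and in 9 of them the probes differed in sign. The widest ranges belonged to Cnot6l (0.86), Ddx6 (0.79) and Pabpc1 (0.60). Of the 79 single probes 1 was called elevated and 2 reduced, where 6.04% and 5.50% of all probes were.

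**Figure D4:**
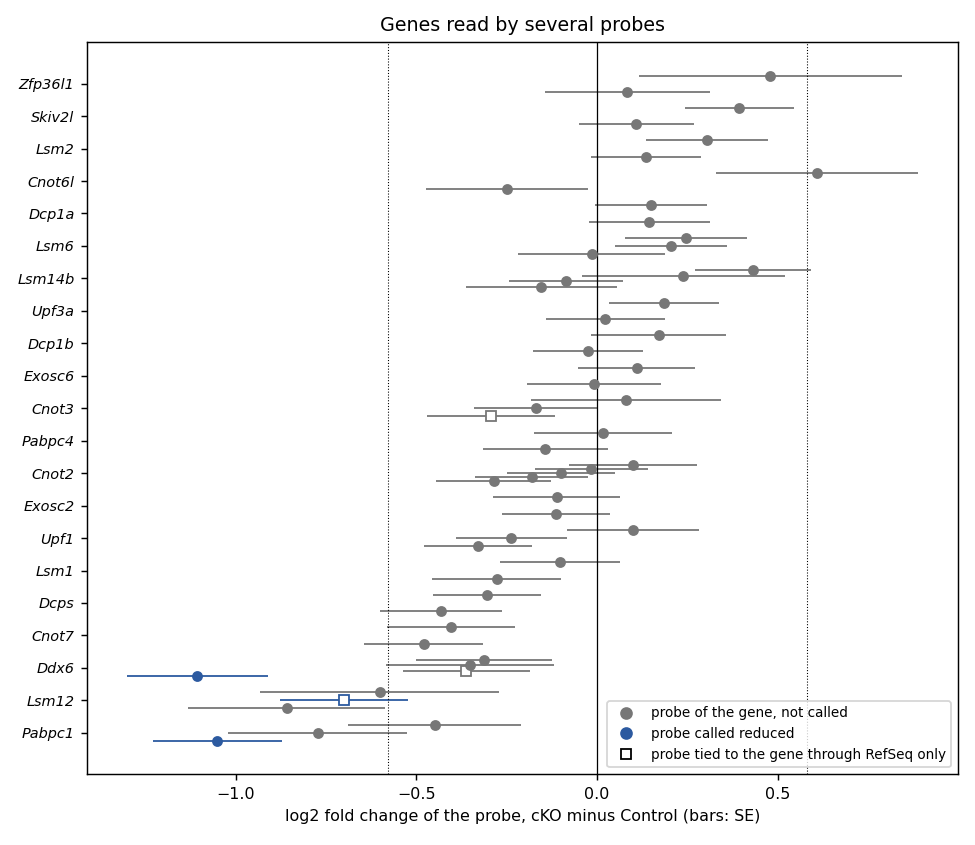
Log2 fold change of Celf1 cKO over Control (horizontal axis, bars are SE) for every retained probe of 21 of the 22 decay genes read by several probes, ordered by the gene's mean, with open squares for probes tied to a gene through RefSeq only. The called probes (blue) are those of Pabpc1 (-1.05), Ddx6 (-1.11) and, outside the chosen probes, Lsm12 (-0.70).

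In the wider set of decay genes outside these families, the share of reduced genes was near that of all genes and no gene was elevated. Of 80 listed genes (further deadenylases, exosome cofactors, P-body proteins, exon junction factors, miRNA silencing proteins, stability factors and translation linkers) 64 were tested, 0 were elevated and 4 were reduced (6.25%, beside 5.64% of all genes), and the median change was -0.06. At an unadjusted p under 0.05 in the limma fit 8 were higher (12.5%) and 11 lower (17.2%), beside 16.8% and 15.0% of all genes, and none of those higher reached an adjusted p under 0.05, whatever the fold (6.43% of all genes did, and 5.97% in the lower direction). The reduced genes were Nbas, a factor of nonsense-mediated decay and of transport from the Golgi to the endoplasmic reticulum, at -1.56 ± 0.20 (8.63 and 8.06 in the cKO lenses against 9.95 and 9.85, adjusted p = 0.0091), Cpeb3, a repressor that binds cytoplasmic polyadenylation elements, at -0.86 ± 0.19 (6.80 and 6.43 against 7.66 and 7.30, 0.0342), Hbs1l, a rescue factor of stalled ribosomes, at -0.77 ± 0.15 (9.00 and 8.77 against 9.61 and 9.70, 0.0239), and Igf2bp2, an RNA-binding protein that stabilises messages, at -0.72 ± 0.14 (8.85 and 8.75 against 9.48 and 9.56, 0.0229). None of the 4 had overlapping groups. Of the 7 lists in this set, the 15 tested stability factors, with Igf2bp2 and Cpeb3, had a median of -0.33 and the 8 translation linkers, with Hbs1l, of -0.32. The medians of the other 5 lists lay between -0.06 and 0.14, the highest being that of the exon junction and nonsense-mediated decay list that holds Nbas. With no scaling between arrays Hbs1l and Igf2bp2 read 0.07 and 0.13, Cpeb3 read -0.22 (adjusted p = 0.44, not called) and Nbas -0.70 (adjusted p = 0.0137). With no detection filter the calls of Nbas (-0.83, adjusted p = 0.089), Cpeb3 (-0.60, 0.13) and Hbs1l (-0.57, 0.089) were lost. With the deposited normalized values set to at least 1 the fold changes kept their sign and all 4 calls were lost, Nbas at -1.60 (adjusted p = 0.073), Cpeb3 at -1.12 (0.11), Hbs1l at -0.81 (0.093) and Igf2bp2 at -0.76 (0.093). Without Control B the calls of Nbas (-1.60, adjusted p = 0.057), Cpeb3 (-1.09, 0.071), Hbs1l (-0.72, 0.095) and Igf2bp2 (-0.68, 0.088) were lost. Those of Cpeb3, Hbs1l and Igf2bp2 were also lost without cKO A (-1.01, -0.89 and -0.78) and without cKO B (-0.67, -0.65 and -0.67), and that of Cpeb3 without Control A (-0.69).

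The count of decay genes called turned on the scaling of the arrays more than on any other step. With no scaling between arrays 30 of the 48 were elevated and 0 reduced, beside 5655 and 133 of all 11516 genes. With the medians over all probes set equal 29 and 0 were, beside 5274 and 144 of all genes. The median of all genes then stood at 0.57 and 0.53, in that order. Relative to that median the decay genes were higher by 0.17. With the medians set equal over probes detected on all 4 arrays, 1 was elevated (Lsm8) and 4 were reduced (Cnot7, Ddx6, Pabpc1 and Xrn1). Of all 11516 genes 667 were elevated and 2018 reduced under that setting, with the median of all genes at -0.19. Lsm8 was higher in the cKO lenses under each of these 3 settings, from 0.96 to 1.72, and at 0.86 as reported. Of the 22 decay genes with a negative fold change, 20 turned positive both without scaling and with equal medians over all probes, and the 2 that stayed negative were Ddx6 and Xrn1. The median of all genes rose to 0.57 and 0.53 under these 2 settings. The share of all genes that turned positive was not computed, so the turn is not read as particular to decay genes.

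**Figure D5:**
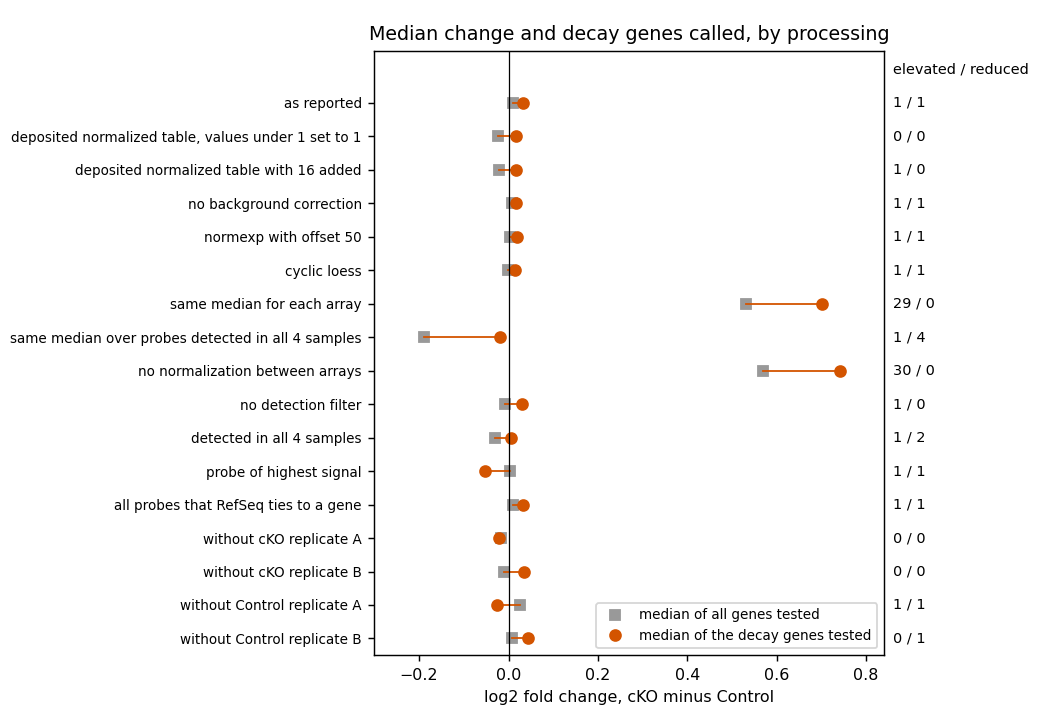
Median log2 fold change of all genes tested (grey squares) and of the decay genes tested (orange circles) as reported and under the alternatives drawn, with the number of decay genes called elevated and reduced at the right. Alternatives with changed call thresholds, with an intensity trend in the variance or with the replicate block are not drawn. The median of all genes departs from 0 with equal medians over probes detected on all 4 arrays (-0.19). It departs more without scaling or with equal medians over all probes (0.57 and 0.53). There 30 and 29 decay genes were called elevated, beside 5655 and 5274 of all 11516 genes.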

How the data were processed

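Total RNA (RNeasy mini kit) of 1 lens per array was hybridised to the MouseWG-6 v2.0 BeadChip. The authors deposited a table of unnormalized bead intensities with detection p-values and a table of normalized intensity values, rank invariant per the file headers, some of them below 0. The main values were computed from the deposited intensity table with limma 3.58.1 in R 4.3.3: background correction from the detection p-values (neqc, offset 16), quantile normalization and log2, and these log2 values are not those of the authors. Probes with detection p under 0.05 on at least 2 arrays were kept, as in the study's methods, and averaged per gene. A total of 18 lines of the tables with shifted columns were left out, and no decay gene was among them. The study applied a count model to the signals, which are not counts, so limma's lmFit and eBayes were used, with Benjamini-Hochberg adjustment over all 11516 genes.

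The decay genes were averaged over the probes of the rule only. The members, their roles, the wider list and the markers were chosen with earlier results of these data known. Named genes were Celf1, every decay gene called, the largest change of each role and the called genes of the wider list. The values of 1 tested gene are not reported here, though it is counted. The fit was tested on simulated data. The arrays of a group are separate lenses, and the number of arrays (2 per group) limits the precision. The labels do not say whether the letters A and B pair the samples, and the main fit did not use them as pairs. The correlation across genes of the A minus B differences of the groups was -0.01, which cannot exclude pairing. The median beads per probe were 38 to 40 per array, and the median bead error of the decay probes was 7.99% on Control B and 4.32 to 4.33% on the others. Alternatives changed the background correction, normalization, filter, probe summary, thresholds, replicate block and the arrays included.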

Additional observations from a re-analysis of the deposited data

How the results depend on the processing

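With 2 lenses per group, leaving out an array left 1 lens assumed to vary like the remaining pair of the other group, with its spread moderated over all genes: decay genes called elevated ran from 0 to 1 and reduced from 0 to 1, Celf1 from -1.67 to -1.18 (call lost without Control B, -1.53, adjusted p = 0.056), and the decay median minus that of all genes from -0.05 to 0.04, beside 0.02 as reported. Decay genes called elevated were 0 with the deposited normalized values under 1 set to 1 and 0 at an absolute log2 fold change over 1, 29 with the same median for each array and 30 with no normalization. Of all 11516 genes, 5, 198, 5274 and 5655 were elevated under these 4, in that order. Decay genes called reduced were 0 under each of these 4, 0 with 16 added to the deposited values, 0 with no detection filter (60 tested), 2 with probes detected on all 4 arrays (Ddx6 added), and 4 with the same median over probes detected on all 4. Of all 11516 genes, 2, 213, 144 and 133 were reduced under the first 4, in that order, and 655 with 16 added. Genes reduced were 104 of 28850 with no detection filter, 705 of 9004 with probes detected on all 4 arrays and 2018 of 11516 with the same median over these. With the letters as a replicate block 2 were reduced (Lsm12 added) and 1 elevated, beside 810 and 873 of all 11516 genes. With the brightest probe per gene Ddx6 (-1.11) was reduced in place of Pabpc1 (-0.45). The decay median minus that of all genes was 0.17 under the 3 settings of equal medians or no normalization. Celf1 was not called with the deposited values set to at least 1 (-1.52, adjusted p = 0.076) or with no detection filter (-1.16, 0.072). Without normalization and with the same median for each array, in that order, the sign reversed for Pabpc1 (0.047, 0.0090), Cnot7 (0.105, 0.067), Smg6 (0.211, 0.173), Hbs1l (0.074, 0.036) and Igf2bp2 (0.129, 0.091), and in all for 20 of the 22 decay genes with a negative change. The median of all genes was 0.57 and 0.53 there, and the share of all genes whose sign reversed was not computed. The cause of these differences was not tested beyond the shift of all genes. Including the probes tied through RefSeq, an alternative chosen after seeing the data, kept 1 elevated and 1 reduced. Xrn1, at log2 4.66 to 5.15, lay close to background, which limits its reading.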
